A study of Mus musculus with 380 samples.

Results

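The 32 genes described here cover the path from glucose uptake to lactate and the transcriptional response to low oxygen in T cells taken from mouse tumours. They are 2 glucose transporter genes, 18 genes of glycolytic enzymes and their isoforms, lactate dehydrogenase included, 2 lactate transporter genes, 2 genes that control the entry of pyruvate into mitochondria, and 8 further genes of the low-oxygen response. Members were taken by name from a list, and all 32 were among the 23420 gene symbols of the deposited table.

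Glycolysis splits glucose into pyruvate and yields a small amount of ATP without oxygen. Activated T cells raise glucose uptake and turn much of the pyruvate into lactate even when oxygen is present, which frees carbon for growth. The transcription factor HIF-1, a dimer whose oxygen-controlled subunit is encoded by Hif1a, is stable when oxygen is scarce and binds short DNA motifs near the genes of glucose transporters, glycolytic enzymes, lactate export and mitochondrial turnover.

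The cells were T cells isolated from B16F10 tumours, a transplantable melanoma line, in C57BL/6 mice whose age the labels do not give. Smart-seq2, a plate-based full-length RNA-seq method, was run on 4 plates, of CD8 cells from WT, CD8 cells with the KO label, CD4 cells from WT and CD4 cells with the KO label, where KO stands for Il27ra knockout, the gene of one chain of the interleukin-27 receptor. With 94 single cells and 1 population well (a bulk library) on each plate, there were 380 libraries. The titles carry one code per genotype (WT4 or KO4), which a CD4 and a CD8 plate share, and p2 on the WT CD4 plate where the rest carry p1. No label says what these codes stand for or how many mice were used. The treatment protocol speaks of CD8 cells only, and the lineage was taken from the titles. Each group is 1 plate, so lineage cannot be told apart from plate, and genotype cannot be told apart from plate or from the code WT4 or KO4.

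A cell was kept when at least 1000 genes were above FPKM 1 (FPKM counts fragments relative to transcript length and to the size of the library). This kept 72, 80, 79 and 73 cells in that order, with medians of 3168, 2508, 2045 and 2218 genes per cell. Cycling cells, those with 3 or more of the proliferation genes Mki67, Top2a, Mcm5, Tyms and Rrm2 above FPKM 1, made up 45.8% of WT CD8 cells (exact interval 34.02 to 58%) and 6.25%, 7.59% and 8.22% of the cells of the other plates in that order. By Cd4 and Cd8a the plates matched their lineage. Cd4 was above FPKM 1 in 84.9 to 89.9% of cells of CD4 plates and at most 5.56% of cells of a CD8 plate. Cd8a was above it in 84.7 to 90% of cells of CD8 plates and at most 5.06% of cells of a CD4 plate. The CD8 marker Cd8b1 split the plates less by detection, at 82.5 to 88.9% of CD8 cells and 30.4% (WT) and 28.8% (KO label) of CD4 cells. Its means were 992 and 1144 FPKM in CD8 cells and 25.5 and 3.49 FPKM in CD4 cells (WT, then KO label). Il27ra was still found under the KO label: in CD8 it was above FPKM 1 in 65.3% (WT) and 61.3% (KO label) of cells, and in CD4 in 43.04% and 47.9%. Its level was lower under the KO label in both lineages, with wells of 157.02 and 85.26 FPKM in CD8 and 243.44 and 72.71 FPKM in CD4, and means over cells of 111.42 and 68.3 FPKM in CD8 and 110.54 and 82.5 FPKM in CD4. Which part of the gene was deleted is not given in the sources used here, so this measurement neither checks nor replaces the label. On the WT CD8 plate 9 kept libraries summed to under 200000 FPKM, and 8 of them came from cells that were not cycling. Cells with 3 or more markers of 1 other cell type numbered 9, 3, 1 and 7 on the 4 plates. Some of these markers were found widely: Tyr in 97.5 to 100% of cells of each plate, Xcr1 in 28.8 to 51.4%, and Eomes in 48.6% of WT CD8 cells. A cell counted this way is thus not shown to be of another type. The wells carried RNA of other cells: macrophage markers summed to 1972, 886, 48.4 and 3361 FPKM and dendritic markers to 5340, 1958, 183.96 and 3627 FPKM in the order above. These sums did not split by lineage or by genotype label, and their part in the results from the wells was not tested.

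Glucose enters through GLUT1 (Slc2a1) and the high-affinity GLUT3 (Slc2a3). Slc2a3 was found in 52.8% of WT CD8 cells (exact interval 40.7 to 64.7%), in 25% of the CD8 cells with the KO label and in 22.8% (WT) and 21.9% (KO label) of CD4 cells. Its wells, in the order of the plates given above, held 196.86, 135.72, 96.1 and 72.7 FPKM. The WT CD8 plate was thus the high one by both views, and both CD8 wells were above both CD4 wells. Means of Slc2a3 over kept cells were 88.2, 41.4, 49.1 and 28.6 FPKM. Without cycling cells they were 56.5, 44.1, 43.1 and 30.5 FPKM, so the WT CD8 plate was still the highest, by less. Slc2a1 was found in 25%, 11.3%, 10.1% and 21.9% of cells, and its wells lay close together at 72.6, 85.2, 71.5 and 79.1 FPKM. FPKM is per length, so these transporters can be set side by side: Slc2a3 made up 73.1% and 61.4% of their summed level in the CD8 wells, and 57.4% and 47.9% in the CD4 wells.

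Hexokinases trap glucose as glucose-6-phosphate. Hk1, the widely expressed form, was found in 54.2% and 40% of CD8 cells (WT, then KO label) and in 44.3% and 38.4% of CD4 cells, an order used from here on. Hk2, the inducible form, was found in 29.2%, 16.3%, 3.80% and 10.96% of cells. The wells held 25.9, 1.09, 11.3 and 10.4 FPKM of Hk2, so the KO-labelled CD8 well held the least. Means over CD8 cells were 7.14 FPKM in WT and 5.82 FPKM under the KO label, the latter 3.45 FPKM without its highest cell. Gpi1, the isomerase of the next step, was found in 87.3 to 94.4% of cells of each plate.

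Phosphofructokinase commits sugar to glycolysis. The platelet-type gene Pfkp led in every plate, with 361.02, 238.71, 315.76 and 234.7 FPKM in the wells, ahead of the liver-type gene Pfkl with 138.48, 150.21, 190.21 and 176.14 FPKM. The muscle-type gene Pfkm stayed at 6.33 to 21.9 FPKM in the wells. Pfkp was found in 69.4% and 66.3% of CD8 cells and in 46.8% and 46.6% of CD4 cells. The exons of Pfkp share 748 bases with Pitrm1 on the opposite strand, a gene whose mean level was 9.49 to 18.5% of the sum of both genes, and no source used here says that the counting used strand. Pfkfb3 makes the activator of phosphofructokinase and was found in 33.3%, 18.8%, 11.4% and 15.1% of cells.

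The lower steps were carried by genes found in most cells. Gapdh was the highest member, with means of 7734, 3570, 3982 and 4234 FPKM over cells and 12687, 8699, 12906 and 12070 FPKM in the wells. Aldoa, Eno1, Pkm and Ldha came next, each found in at least 78.5% of cells of every plate. Tpi1, Pgk1 and Pgam1 encode triose isomerase, the first ATP-yielding kinase of the path and phosphoglycerate mutase, and they were patchier: Tpi1 was found in 73.6%, 51.3%, 49.4% and 58.9% of cells, Pgk1 in 76.4%, 62.5%, 50.6% and 63.01%, and Pgam1 in 76.4%, 65%, 40.5% and 49.3%. WT CD8 cells were the highest for all 3. Gene copies that align to Gapdh transcripts held under 1% of the summed level. A copy of Eno1, Gm5506, held 6.15 to 8.37% of the sum of both, so the Eno1 values carry that uncertainty.

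Lactate dehydrogenase A (Ldha) turns pyruvate into lactate, and the B subunit (Ldhb) favours the reverse reaction. Ldha dominated, with 5208, 3584, 7102 and 6852 FPKM in the wells, while Ldhb held 21.4, 6.98, 102.29 and 76.5 FPKM. Lactate leaves through MCT1 (Slc16a1) and through MCT4 (Slc16a3), the form known for export from highly glycolytic cells. Slc16a3 was found in 33.3%, 10%, 24.1% and 26.03% of cells, with the KO-labelled CD8 plate apart from the rest, and Slc16a1 in 19.4%, 10%, 2.53% and 2.74%. Pdk1, a kinase that blocks pyruvate dehydrogenase, was found in 17.7 to 22.2% of cells of each plate. Pdha1, the subunit it acts on, was found in 52.8%, 40%, 44.3% and 32.9% of cells.

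Hif1a was found in 65.3%, 55%, 79.7% and 82.2% of cells. Mif, a cytokine gene and known HIF-1 target, was found in 72.2%, 70%, 48.1% and 54.8%. The mitophagy gene Bnip3 was found in 12 of 72, 1 of 80, 12 of 79 and 11 of 73 cells, and the HIF prolyl hydroxylase gene Egln3 in 11, 1, 7 and 9. Both genes were thus scarce on the KO-labelled CD8 plate. Among the other targets, the oxidoreductase gene Ero1l was found in 18.8 to 36.1% of cells, the collagen hydroxylase gene P4ha1 in 21.3 to 32.9%, and Ddit4, an inhibitor of mTORC1 signalling, in 25 to 34.7%. Vegfa, the gene of the endothelial growth factor, was found in 1, 1, 0 and 2 cells, and 0 of 79 cells allows a share of cells with detection of up to 3.80% when 3 cells are taken as the limit (exact upper bound 4.56%).

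**Figure D1:**
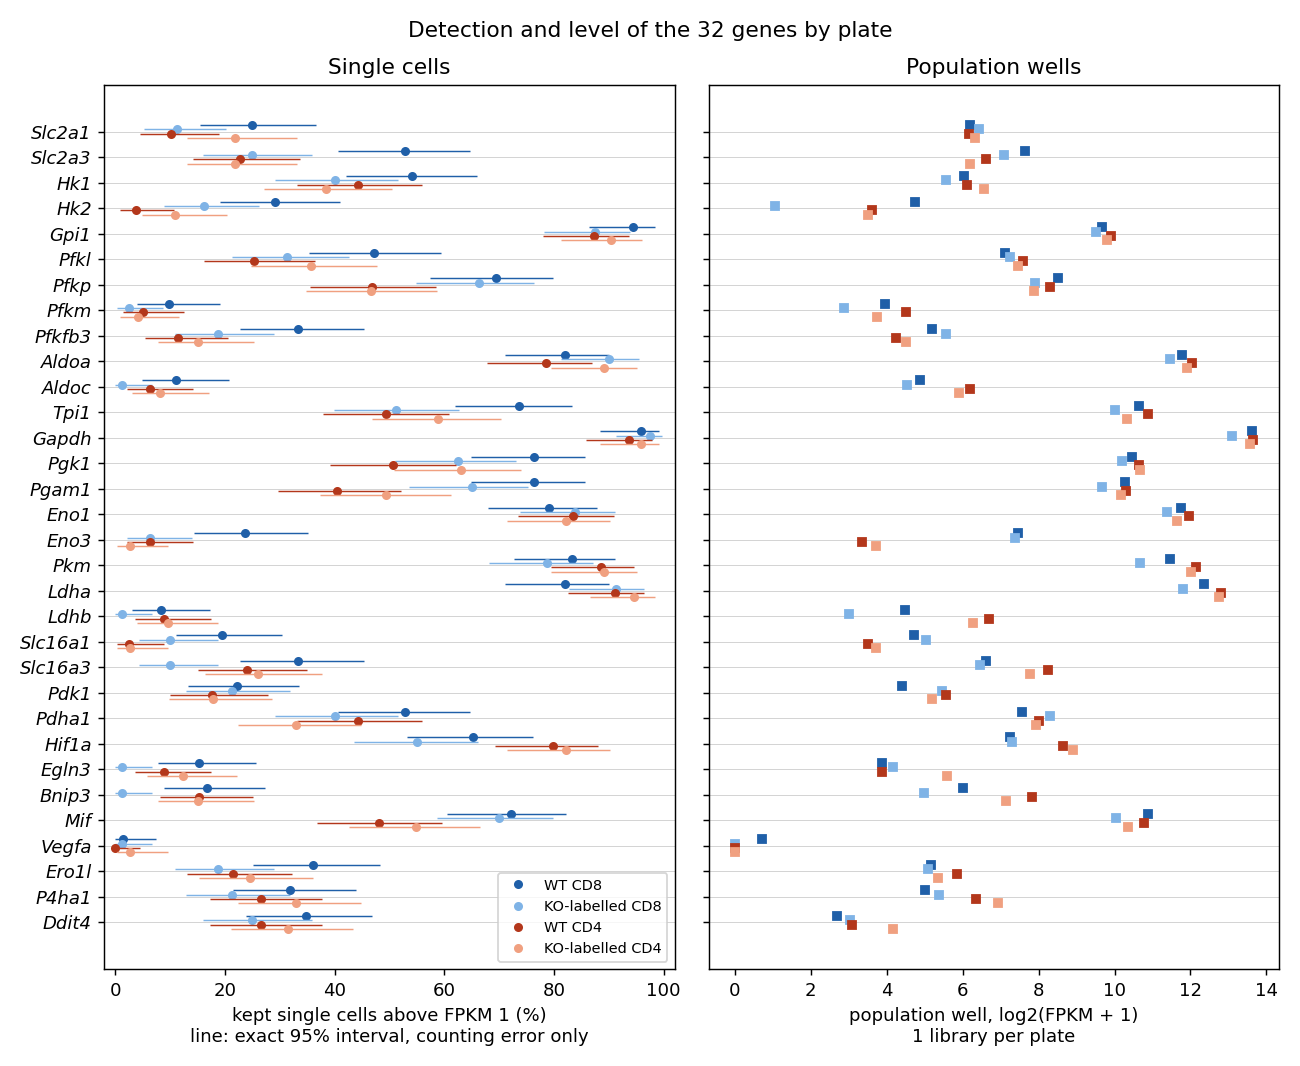
Left, percent of kept single cells above FPKM 1 for each of the 32 genes in the 4 plates, with exact 95% intervals; right, log2(FPKM + 1) of the population well of each plate. Slc2a3 stands at 52.8% of WT CD8 cells and at 21.9 to 25% in the other plates, and Hif1a is higher in both CD4 plates than in both CD8 plates.

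Between the CD4 and CD8 wells the members that differed by 1 log2 unit or more under both labels were Hif1a, Slc16a3, Bnip3, P4ha1, Ldhb, Aldoc, Eno3 and Slc16a1. In the wells Hif1a held 150.14 and 157.73 FPKM in CD8 (WT, then KO-labelled) and 396 and 474 FPKM in CD4, and MCT4 (Slc16a3) held 96.8 and 86.3 FPKM against 302.4 and 217.52 FPKM. Both CD4 wells lay above both CD8 wells for each gene. Bnip3 held 63.03 and 30.8 FPKM in CD8 and 225.43 and 139.3 FPKM in CD4, P4ha1 31.4 and 40.5 against 80.97 and 120.02 FPKM, Ldhb 21.4 and 6.98 against 102.29 and 76.5 FPKM, and Aldoc, a minor aldolase, 28.4 and 22.04 against 71.6 and 59.2 FPKM. Muscle enolase (Eno3) ran the other way, at 175.82 and 164.74 FPKM in CD8 and 9.17 and 12.2 FPKM in CD4, as did MCT1 (Slc16a1), at 25.5 and 32.01 FPKM against 10.3 and 12.1 FPKM. In a well, fewer cells of a type and less RNA per cell cannot be told apart.

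The 6 higher in CD4 were 19.4% of the 31 members measured in wells, against 4.13% of all 12806 genes. The 2 higher in CD8 were 6.45%, against 4.52% of all genes. By the looser reading that both CD4 wells lay above both CD8 wells, 15 members (48.4%) qualified, against 17.4% of all genes, and by the reverse 4 members (12.9%) did, against 15.4%. The 15 also included Hk1, Gpi1, Pfkl, Aldoa, Pgk1, Pkm, Ldha, Ero1l and Ddit4, and the 4 were Slc2a3, Pfkfb3, Eno3 and Slc16a1.

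**Figure D2:**
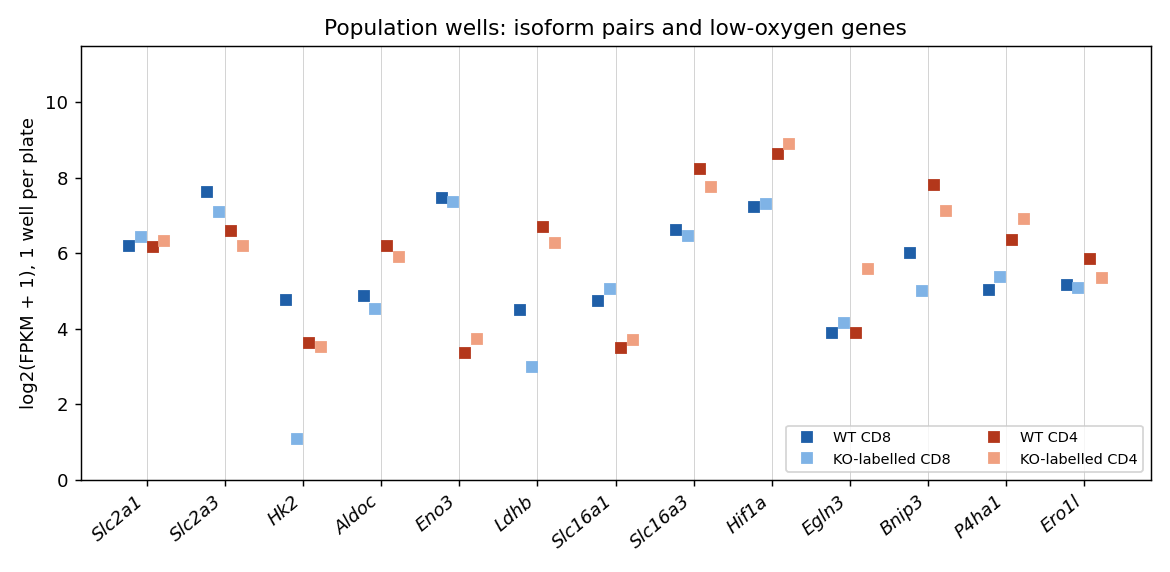
Log2(FPKM + 1) of 13 genes in the 4 population wells, 1 square per well. The CD4 wells lie above the CD8 wells for Aldoc, Ldhb, Slc16a3, Hif1a, Bnip3 and P4ha1 and below them for Eno3 and Slc16a1, and the KO-labelled CD8 well holds 1.09 FPKM of Hk2.

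The isoform balance moved with these genes. Slc16a3 made up 79.1% and 72.9% of the summed MCT1 and MCT4 level in the CD8 wells, and 96.7% and 94.7% in the CD4 wells. Eno3 made up 4.87% and 5.78% of its enolase pair in CD8 wells and 0.231% and 0.375% in CD4 wells. Single cells gave a weaker view of Eno3: the means were 63.2 and 9.30 FPKM in CD8 cells and 39.3 and 5.22 FPKM in CD4 cells, so the plates did not order by lineage. Single cells weigh on these means: without the highest cell of each plate they were 52.6, 5.54, 17.1 and 0.39 FPKM. Slc16a1 was higher in CD8 as in the wells, with 16.9 and 11 FPKM in CD8 and 7.96 and 3.47 FPKM in CD4 cells. Without the highest cell these means were 13.99, 8.17, 1.37 and 1.33 FPKM. Within each lineage the WT plate was the higher one in cells and the KO-labelled one in the wells.

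With 2 wells a lineage, limma (lineage and genotype label as terms, 1 residual degree of freedom) called 9 of 11218 genes between lineages when the spread was tied to the level, 0.0802% of all, and 0 of the 31 members. Eno3 came nearest, with a log2 difference (CD4 minus CD8) of -3.89 and an adjusted p of 0.0895. Without tying the spread to the level limma called 0 genes (0% of all), although 893 (7.96%) had an unadjusted p under 0.05, 7 of them members. On the 4 plate means of cells, limma without that tie called 3.14% of 6755 genes, among them 3 of 25 members: Hif1a at 2.12 log2 units higher in CD4 (adjusted p = 0.0116), and Pgam1 and Mif with differences of -2.22 (adjusted p = 0.0110) and -1.92 (adjusted p = 0.0305). With the tie it called 86 genes (1.27%) and 0 of the 25 members, with Hif1a at an adjusted p of 0.152. The CD4 minus CD8 differences of Pgam1 and Mif had the other sign in the wells, at 0.25 and 0.10.

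Between single cells a gene counted as measured in a comparison when above FPKM 1 in at least 20% of cells of 1 of its plates, and the difference is that of the means over cells of log2(FPKM + 1). A gene that passes only through its higher plate had to differ, so the counts that follow describe the measured members and do not support a direction. The members never measured were Pfkm, Aldoc, Ldhb, Slc16a1, Egln3, Bnip3 and Vegfa.

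In WT cells 25 members were measured, with a median CD4 minus CD8 difference of -0.48 against -0.76 for all genes. Of these 9 were at least 1 log2 unit lower in CD4 (36%, against 37.2% of all genes), a share near the background: Pgam1 (-3.24), Pgk1 (-2.82), Mif (-2.66), Tpi1 (-2.63), Pfkp (-2.07), Slc2a3 (-1.83), Pfkl (-1.76), Eno3 (-1.30) and Hk2 (-1.03). Hif1a alone was as far higher, by 1.79 (4% of members, 2.16% of all genes), and P4ha1 and Pdk1 were nearest to 0 at -0.12 and -0.14. Of the cycling cells 33 were WT CD8 and 6 WT CD4, and without them on both plates the median was 0.18. In the wells Hk1, Gpi1, Pfkl, Aldoa, Tpi1, Gapdh, Pgk1, Pgam1, Slc16a3, Pdk1, Pdha1, Ero1l, P4ha1 and Ddit4 had the other sign, with values from 0.02 for Pgam1 and Gapdh to 1.63 for Slc16a3. Without cycling cells Hk1, Gpi1, Aldoa, Gapdh, Slc16a3, Pdk1, Pdha1, Ero1l and P4ha1 did. With the sparse WT CD8 libraries also left out, the median was negative again. Aldoa (-0.63), Gapdh (-1.02), Slc16a3 (-0.20), Pdk1 (-0.22), Pdha1 (-0.15) and P4ha1 (-0.13) were then below 0, while Hk1, Gpi1 and Ero1l stayed above it.

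In KO-labelled cells, where few cells were cycling, 22 members were measured and the median was 0.24 against -0.21 for all genes. Hif1a (2.45), Pkm (1.42) and Slc16a3 (1.31) were at least 1 log2 unit higher in CD4 (13.6%, against 4.63% of all genes). Pfkp (-1.23), Pgam1 (-1.20) and Mif (-1.17) were as far lower (13.6%, against 11.1%), and Eno1 and Hk1 were nearest to 0 at -0.03 and 0.03. In the wells Slc2a1 (-0.10), Pgk1 (0.47), Pgam1 (0.49), Eno1 (0.27) and Mif (0.31) had the other sign, and no member changed sign without cycling cells. Both lineage comparisons rest on their own plates, and in both Hif1a was higher in CD4 and Slc2a3 and Pfkp lower under each of 9 ways of choosing or scaling cells, the wells included. In the wells Pfkp was only at -0.19 in WT and -0.02 under the KO label. Centred on all genes, Hif1a and Pfkp kept their direction in all 9 under both labels, while Slc2a3 did so in WT only. In WT 1 member was higher in all 9 (4.89% of all genes) and 5 were lower (19.3%), and under the KO label 10 were higher (18%) and 2 lower (27.4%). The KO-labelled plates held no sparse libraries, so the settings that leave these out repeat others and the 9 are not all distinct there.

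Short motifs at the starts of genes are shown for 5 of the 8 members that split by lineage in the wells, chosen after the motif counts were known. Windows of the 250 bases before each annotated start (RefSeq, GRCm38.p6) were found for 31 of the 32 members, 45 windows in all. The motifs searched were ACGTG and GCGTG on both strands, the core letters to which HIF-1 is known to bind. At least 1 of them lay in 36 of the 45 windows (80%), against 38.6% of all 32851 windows. Some windows of the same gene overlap, as for Aldoa, Eno1 and Pfkm, so a site can count more than 1 time. The base content of the windows was not matched, so these shares do not test for enrichment. CACGTG, which holds ACGTG on both strands, lay in 13.3% of the members' windows and 6.02% of all. The 3 windows of genes higher in CD4 wells and the 2 of genes higher in CD8 wells follow, 5′ to 3′ on the strand of the gene, with the motif letters in capitals (CACGT and CACGC are the same motifs on the other strand). A match is a description of the letters and no sign of binding.
Bnip3, chr7:138909507-138909756, minus strand: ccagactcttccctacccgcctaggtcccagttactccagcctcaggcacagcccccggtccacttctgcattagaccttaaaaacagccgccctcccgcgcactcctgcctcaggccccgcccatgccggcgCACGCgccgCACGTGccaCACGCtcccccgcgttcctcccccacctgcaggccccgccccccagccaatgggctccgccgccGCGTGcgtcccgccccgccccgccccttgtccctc
P4ha1, chr10:59323046-59323295, plus strand: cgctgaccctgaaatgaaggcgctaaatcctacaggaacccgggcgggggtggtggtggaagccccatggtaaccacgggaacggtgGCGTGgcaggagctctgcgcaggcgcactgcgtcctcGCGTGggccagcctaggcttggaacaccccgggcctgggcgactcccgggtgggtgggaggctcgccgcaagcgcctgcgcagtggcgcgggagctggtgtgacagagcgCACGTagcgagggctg
Slc16a3, chr11:120948817-120949066, plus strand: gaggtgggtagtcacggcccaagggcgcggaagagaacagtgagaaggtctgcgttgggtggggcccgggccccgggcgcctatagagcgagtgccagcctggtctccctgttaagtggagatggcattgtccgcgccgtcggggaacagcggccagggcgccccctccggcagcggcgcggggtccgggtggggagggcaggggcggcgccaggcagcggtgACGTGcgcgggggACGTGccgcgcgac
Eno3, chr11:70656926-70657175, plus strand: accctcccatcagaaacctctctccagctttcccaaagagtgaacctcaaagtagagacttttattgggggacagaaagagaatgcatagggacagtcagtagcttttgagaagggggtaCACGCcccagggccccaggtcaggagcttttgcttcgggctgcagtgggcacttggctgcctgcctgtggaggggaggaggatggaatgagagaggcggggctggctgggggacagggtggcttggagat
Slc16a1, chr3:104638414-104638663, plus strand: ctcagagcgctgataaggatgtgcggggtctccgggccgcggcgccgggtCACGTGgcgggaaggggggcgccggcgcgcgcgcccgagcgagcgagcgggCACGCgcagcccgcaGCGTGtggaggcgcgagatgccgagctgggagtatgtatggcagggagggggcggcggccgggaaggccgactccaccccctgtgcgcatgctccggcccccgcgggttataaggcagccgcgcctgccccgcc
The motif letters thus stood before genes that were high in either lineage, several times in Bnip3, P4ha1, Slc16a3 and Slc16a1 and once in Eno3. Of the members not shown that were higher in CD4 wells, Hif1a held ACGTG 3 times, and Ldhb and each of the 2 windows of Aldoc held GCGTG 1 time.

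The Il27ra comparison in CD8 cells was led by lower values in the KO-labelled plate. Tpi1 had the lowest difference, KO-labelled minus WT, at -2.64: it was found in 53 of 72 WT and 41 of 80 KO-labelled cells, with means of 988 and 262.98 FPKM, and its wells held 1598 and 1027 FPKM. Slc2a3 followed at -1.93, Pgk1 at -1.89, Slc16a3 at -1.62, Eno3 at -1.38, Pgam1 at -1.28, Pfkl at -1.18 and Pkm at -1.12. These 8 of the 25 measured members were 32%, against 19.5% of all 6599 genes, and 0 members were as far higher (3% of all genes). The median was -0.75 against -0.46 for all genes. Eno1 (-0.05) and Pdk1 (0.15) were nearest to 0, and Ldha (0.64) and Aldoa (0.41) were the highest.

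Cycling cells made up 45.8% of the WT plate and 6.25% of the KO-labelled one, and their part in this difference was not tested. On the WT plate they also had more genes detected, with a median of 4499 against 2390 in the other cells. Without cycling cells on both plates the median was 0.27 against 0.26 for all genes. Then 1 member was at least 1 log2 unit lower (4.76%, against 2.45% of all genes) and 4 were as far higher (19.05%, against 17.3%). Hk1, Hk2, Gpi1, Pfkp, Pfkfb3, Gapdh, Pgam1, Eno1, Pkm, Hif1a, Mif and Ero1l then had the other sign, from 0.01 for Hif1a to 1.37 for Eno1. The median changed again when the 8 sparse WT libraries among the cells that were not cycling were left out too. Without them and the cycling cells the median was -0.66. Tpi1 was then at -2.72, Pgk1 at -1.69, Pkm at -1.37, Slc16a3 at -1.23 and Slc2a3 at -1.14, while Ldha was at 0.95. Leaving out the sparse libraries alone turned Ldha to -0.45 and Aldoa to -0.72, with a median of -1.16. With cells of both plates paired on the number of genes detected (41 pairs) the median was -0.07.

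The members lower in the KO-labelled CD8 plate under all 9 ways of choosing or scaling cells, the wells included, were Slc2a3, Tpi1, Pgk1, Eno3 and Slc16a3, 5 of the 25 (15.7% of all genes did so). In the wells the differences of these 5 members were smaller, at -0.53, -0.64, -0.27, -0.09 and -0.16. The wells held a median member difference of -0.31, with 4 members at least 1 log2 unit lower (12.9%, against 16.8% of all genes): Hk2 (-3.69), Ldhb (-1.49), Pfkm (-1.09) and Bnip3 (-1.01). Pdk1 was the only one as far higher, at 1.06 (3.23%, against 18.6% of all genes). Slc2a1, Pfkl, Pfkfb3, Pdha1, Hif1a, P4ha1 and Ddit4 were higher in the KO-labelled well and lower in its cells, and Ldha (-0.54) and Aldoa (-0.31) were lower in the well and higher in the cells.

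In CD4 cells the same comparison gave small differences. Of 21 measured members Aldoa alone passed 1 log2 unit, at 1.11 (4.76%, against 8.75% of all genes), and 0 were as far lower (1.51% of all genes). Aldoa was found in 78.5% of WT and 89.04% of KO-labelled cells, with 4244 and 3827 FPKM in the wells, so the wells did not share the direction. Pfkl was at 0.99, Pgam1 at 0.76, and Pdha1 was the lowest at -0.88. Gpi1 (0.00), Ero1l (0.07), Hif1a (-0.08) and Pkm (0.08) were nearest to 0. The median was 0.37 against 0.16 for all genes.

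The wells of the CD4 plates held a median of -0.11, and Gpi1, Pfkl, Pfkp, Aldoa, Tpi1, Gapdh, Pgam1, Pkm, Ldha, Slc16a3, Mif and Ero1l were lower in the KO-labelled well, with values from -0.05 for Ldha to -0.57 for Tpi1, against higher or equal values in cells. Hk1 (0.44) and Hif1a (0.26) turned the other way, and Slc2a3 and Hif1a became 0.04 each without cycling cells. In the wells Egln3 (1.70) and Ddit4 (1.08) were at least 1 log2 unit higher under the KO label (6.45% of members, against 19.9% of all genes). Slc2a1, Pgk1, P4ha1 and Ddit4 were higher under all 9 settings (4 of 21, against 22.6% of all genes), and Eno1 and Pdha1 lower (2 of 21, against 17.3%). Neither CD4 plate held sparse libraries, so the settings that leave these out repeat others and the 9 are not all distinct here. In the wells of both lineages 0 members moved by 1 log2 unit or more in the same direction with the genotype label, against 4.03% of all genes higher and 2.55% lower.

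**Figure D3:**
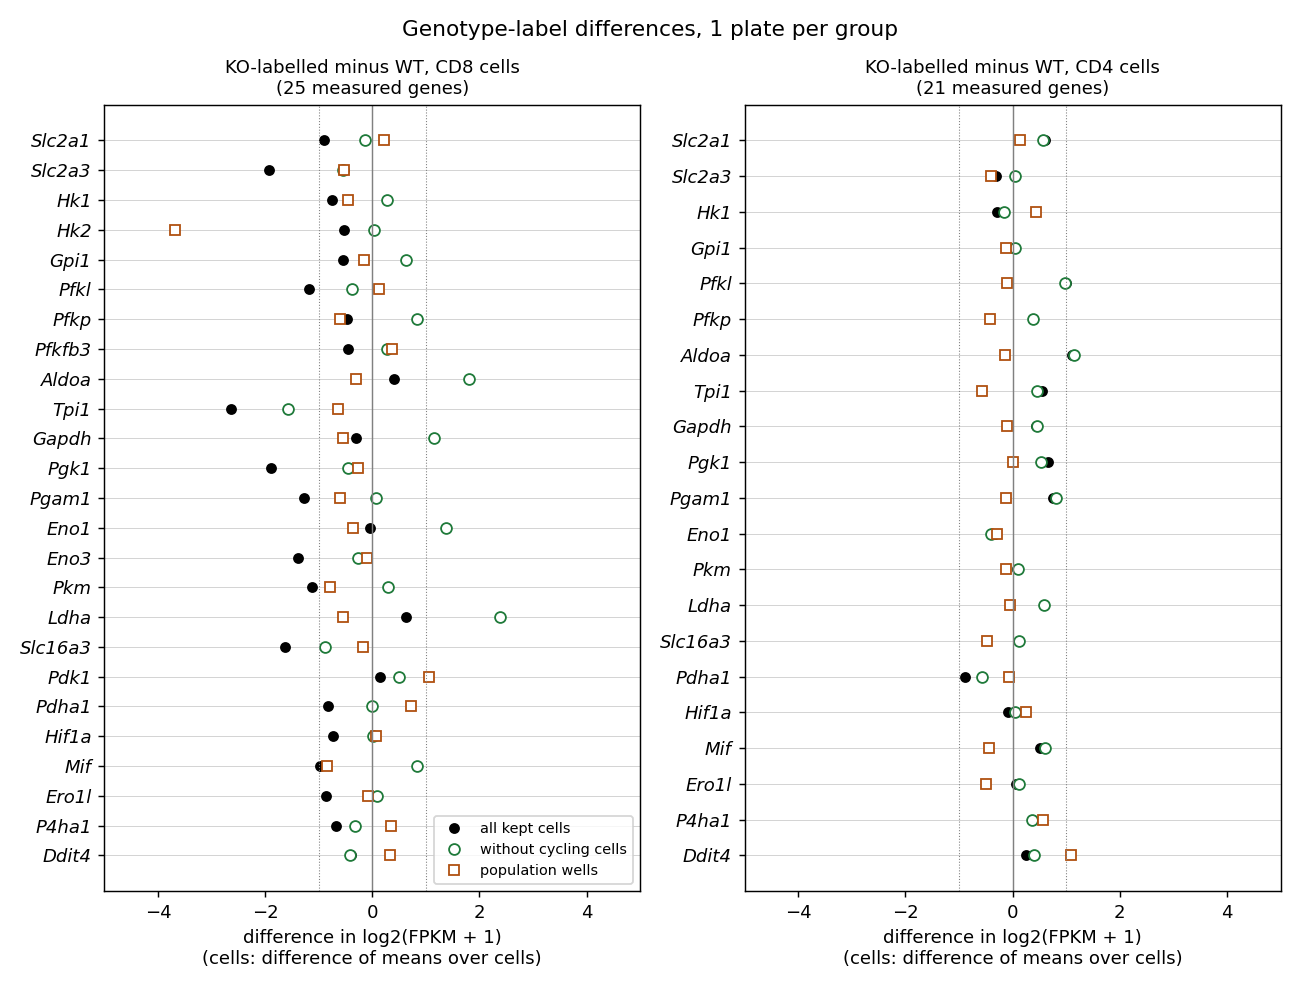
KO-labelled minus WT differences in log2(FPKM + 1) for the measured genes in CD8 (left) and CD4 (right): all kept cells (filled), without cycling cells (open circles) and population wells (squares); dotted lines mark 1 log2 unit. In CD8 cells the filled points reach -2.64 for Tpi1, the open circles lie around 0.27, and Hk2 in the wells is at -3.69.

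A small number of cells held several low-oxygen genes at once. In the 36 cells with Bnip3 above FPKM 1, MCT4 (Slc16a3) was found in 72.2% (exact interval 54.8 to 85.8%), against 16.4% (12.2 to 21.4%) of the kept cells without Bnip3. P4ha1 was found in 55.6% against 24.3%, Slc2a1 in 44.4% against 13.1%, Ero1l in 44.4% against 22.4%, Ddit4 in 55.6% against 25.7%, Egln3 in 25% against 7.09% and Aldoc in 22.2% against 4.48%. Of these members the lactate exporter had the widest gap between cells with and without the mitophagy gene. Cells with Bnip3 had more genes detected, with medians of 3324 and 2288, and over all 7391 genes found in 5 to 40% of kept cells the median shares were 25% and 15.7%. A gap as wide as that of Slc16a3 was held by 0.0271% of those genes, Slc16a3 itself counted. Within plates the share was 0.108% in WT CD8, 0.0541% in WT CD4 and 1.12% in KO-labelled CD4 cells. Slc16a3 was singled out for its wide gap, so these shares describe the choice and test nothing. The gap for Slc16a3 stood in each plate with more than 1 such cell: 83.3% against 23.3% in WT CD8, 75% against 14.9% in WT CD4 and 63.6% against 19.4% in KO-labelled CD4 cells. The shares of the other genes pool all plates, which gave unequal numbers of cells with Bnip3. The part of plate differences in those gaps was not tested.

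The KO-labelled CD8 plate had few such cells. Of 8 members of the low-oxygen response (Bnip3, Egln3, Aldoc, P4ha1, Ero1l, Slc16a3, Slc2a1 and Pdk1, a set put together after the values were seen), 3 or more were found in 25 of 72 WT CD8 cells (34.7%, exact interval 23.9 to 46.9%), 2 of 80 KO-labelled CD8 cells (2.5%, 0.304 to 8.74%), 11 of 79 WT CD4 cells (13.9%, 7.16 to 23.5%) and 15 of 73 KO-labelled CD4 cells (20.5%, 11.98 to 31.6%). These intervals cover counting error within 1 plate alone. The 8 genes were chosen on these values, so the intervals test no difference between plates. Without cycling cells the counts were 6 of 39, 1 of 75, 7 of 73 and 12 of 67. Among cells that were not cycling and had at least 2000 genes detected they were 21.4%, 1.64%, 20% and 23.3%, and with cells that carried markers of another type also left out of the cells that were not cycling they were 13.9%, 1.39%, 9.72% and 13.3%.

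The median number of genes detected was 3168, 2508, 2045 and 2218, and its part in these counts was not tested beyond the values with at least 2000 genes. The mean share of cells with each of the 8 genes was 23.96%, 10.8%, 16.3% and 19.9%, while over the 7391 genes found in 5 to 40% of cells it was 25.6%, 17.9%, 14.4% and 15.8%. The 8 genes were chosen on these values, so this is a description of the choice. A cell with none of the 8 was as common there (38.8%) as in WT CD8 cells (38.9%), while cells with 3 or more were fewer. The wells did not repeat this: the KO-labelled CD8 well was the lowest of the 4 for 4 of the 8 genes (Slc16a3, Bnip3, Aldoc and Ero1l) and the highest for Slc2a1. Which of genotype, animal or plate goes with this difference cannot be told apart.

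**Figure D4:**
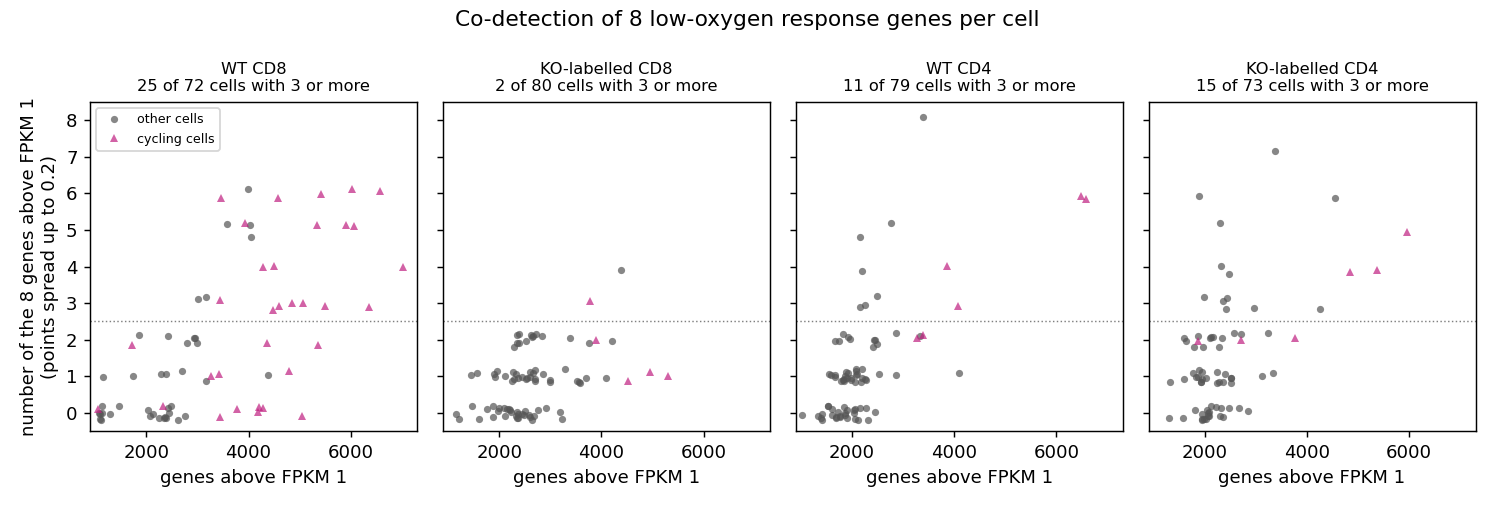
Each point is 1 kept cell: the number of the 8 low-oxygen genes above FPKM 1 against the number of genes above FPKM 1, with cycling cells as triangles. Above the dotted line lie 25 of 72 (WT) and 2 of 80 (KO label) CD8 cells, and 11 of 79 and 15 of 73 CD4 cells.

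In cells that were not cycling, other members were also found more often where 3 or more of the 8 were (26 cells) than in the rest. Hk1 was found in 80.8% against 32.02%, Pfkl in 61.5% against 24.1%, Pgk1 in 92.3% against 52.6%, Tpi1 in 84.6% against 48.2% and Mif in 88.5% against 52.2%. Pfkfb3 (15.4% against 14.9%) and Slc16a1 (3.85% against 4.39%) did not follow. The cells with 3 or more had more genes detected, so these shares describe richer libraries as well as the genes.

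Cycling cells held more of nearly every member than the other cells of their plate. The median member difference, cycling minus other, was 2.51 in WT CD8 cells (33 cycling), 2.22 in KO-labelled CD8 (5 cycling), 3.07 in WT CD4 (6) and 2.59 in KO-labelled CD4 cells (6), against 1.48, 1.18, 1.89 and 1.52 for all genes. At least 1 log2 unit higher were 25 of 28 measured members in WT CD8 (66.1% of all genes), 19 of 26 in KO-labelled CD8 (55.6%), 25 of 26 in WT CD4 (74.9%) and 20 of 25 in KO-labelled CD4 cells (66.2%). Mif had the largest difference in WT CD8 (4.29) and WT CD4 cells (6.03), Tpi1 in KO-labelled CD8 (6.15) and Pgk1 in KO-labelled CD4 cells (5.31). Cycling cells also had more genes detected, with medians from 3968 to 4516 against 1972 to 2446. Paired on genes detected, the medians were -0.88 (9 pairs), -0.48 (3 pairs), -0.69 (3 pairs) and 1.45 (2 pairs), so with like numbers of genes detected the median lay below 0 on 3 of the 4 plates.

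The core enzymes followed the richness of the library. The mean log2(FPKM + 1) of Gpi1, Aldoa, Tpi1, Gapdh, Pgk1, Pgam1, Eno1, Pkm and Ldha correlated with the number of genes detected at r = 0.92, 0.73, 0.64 and 0.69 over the 72, 80, 79 and 73 cells, which share library preparation and depth. All 9 were found in 55.6%, 28.75%, 17.7% and 28.8% of cells. After a straight-line fit on genes detected was removed, the pairs with the highest mean correlation over the 4 plates were Aldoa with Gapdh (0.38), Aldoa with Tpi1 (0.32), Pfkl with Tpi1 (0.31) and Tpi1 with Pgk1 (0.31). The median pair was at 0.06 to 0.12 by plate, so the middle pair kept little correlation once richness was removed. The part of missed detection in these low values was not tested. The genes outside the set nearest to the core level, of 3341 tested, were the Gapdh copies Gm5177 (mean r 0.60) and Gm5069 (0.52), then Hnrnpk (0.35), Pfn1 (0.33), Myl12a (0.32), Actg1 (0.31), Capzb (0.31), B2m (0.31), Actb (0.31) and Cfl1 (0.30).

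**Figure D5:**
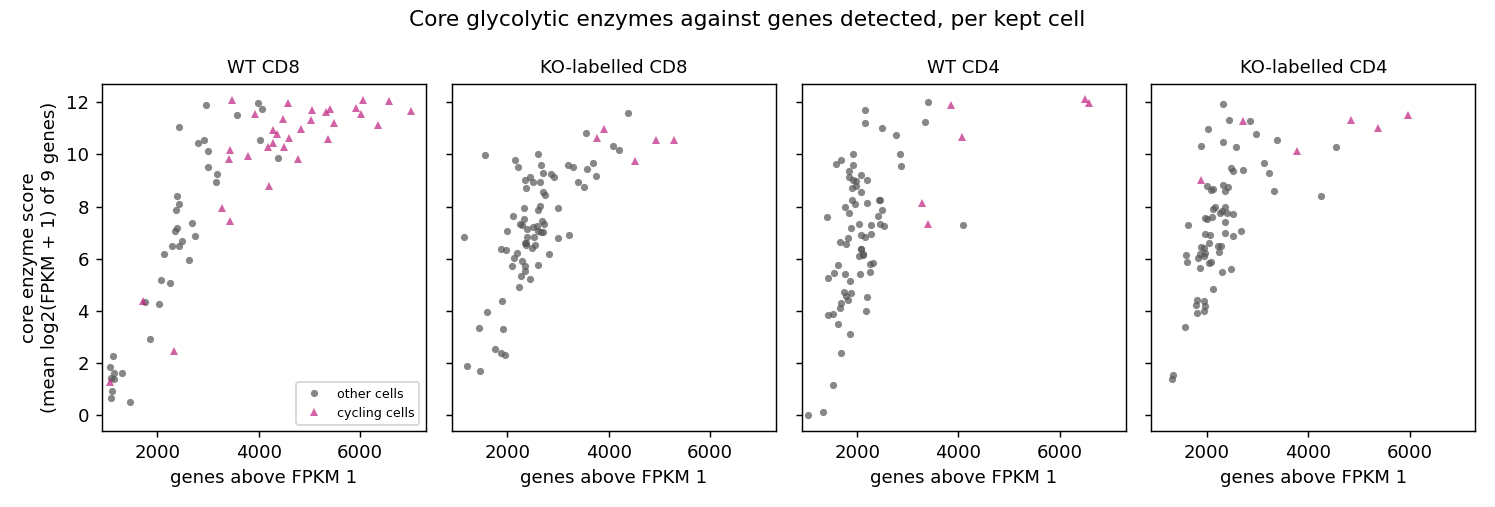
Each point is 1 kept cell: mean log2(FPKM + 1) of the 9 core enzymes against the number of genes above FPKM 1, with cycling cells as triangles. The correlation is 0.92 in WT CD8 cells and 0.64 to 0.73 in the other plates. Most cycling cells lie to the right of most other cells of their plate, though some WT CD8 and KO-labelled CD4 ones lie further left.

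Genes of neighbouring pathways were read in the same comparisons. In the KO-labelled minus WT comparison of CD8 cells, 5 of 6 measured genes of the pentose phosphate path were at least 1 log2 unit lower (Tkt -2.10, Pgls -1.92, Pgd -1.67, G6pdx -1.16 and Rpe -1.01), as were 4 of 7 genes of pyruvate entry (Pdhb -1.56, Mpc1 -1.48, Dld -1.32 and Pdk3 -1.29), 3 of 12 other low-oxygen genes (Bnip3l -1.81, Egln2 -1.07 and Epas1 -1.01), 1 of 6 further glycolysis genes (Slc2a8 -1.02) and 2 of 13 growth regulators (Prkaa1 -1.13 and Tfrc -1.03). The share of all genes was 19.5%, so the last 3 counts lie near it. Without cycling cells only Slc2a8 (-1.03) and Prkaa1 (-1.21) of these still passed, and in the wells 0 did, with Slc2a8, Pdhb, Dld, Pdk3, G6pdx, Egln2 and Bnip3l above 0 there. In CD4 cells the same comparison had 2 of 8 low-oxygen genes (Wsb1 1.35 and Plin2 1.27) and 3 of 8 regulators (Rheb 1.27, Myc 1.19 and Slc3a2 1.05) at least 1 log2 unit higher, against 8.75% of all genes. In the wells Myc was at -1.42 and Wsb1 at -0.40.

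Between lineages in WT cells all 7 measured pyruvate entry genes were at least 1 log2 unit lower in CD4 (Pdhb -2.58 and Pdk3 -2.57 the lowest, then Mpc1, Dld, Dlat, Mpc2 and Pdp2), with 5 of 6 pentose genes (Pgls -2.69 the lowest, then Taldo1, Tkt, Rpe and Pgd), 4 of 12 low-oxygen genes (Fam162a -1.87, Bhlhe40 -1.83, Higd1a -1.79 and Hif1an -1.21) and 6 of 13 regulators (Trp53 -2.37, Tfrc -2.17, Myc -1.93, Slc3a2 -1.21, Rheb -1.19 and Pik3cd -1.15). The share of all genes was 37.2%. The medians shrank without cycling cells and in the wells, from -1.81 to -0.91 and -0.081 for pyruvate entry and from -1.63 to -0.63 and -0.34 for the pentose path. In the wells Mpc1 (0.72), Mpc2 (0.46), Dld (0.10), Pgd (0.54), Higd1a (0.22), Trp53 (0.12) and Slc3a2 (0.39) had the other sign and Fam162a was at 0.00. In KO-labelled cells Wsb1 (1.28), Plin2 (1.27) and Bnip3l (1.39) were higher in CD4, and Pdk3 (-1.21), Trp53 (-1.38), Pik3cd (-1.25) and Tfrc (-1.03) lower. Of the WT genes the HIF inhibitor gene Hif1an (-1.10) and the repressor gene Bhlhe40 (-1.56) were at least 1 log2 unit lower in the well too. Under the KO label Pik3cd (-1.05) and Plin2 (1.84) passed in the wells as in cells, while Wsb1 (-1.11), Bnip3l (-0.18) and Tfrc (0.48) had the other sign there.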

How the data were processed

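Smart-seq2 libraries of single T cells and of 4 population wells were analysed from 1 deposited table with 380 columns, 0 of them without a sample. The values are FPKM, which the authors scaled by TMM factors per the labels; RSEM, Bowtie and mm10 are named per the submitters' processing notes, with no versions. No counts are used, so the depth is unknown. Cells with at least 1000 genes above FPKM 1 were kept. Levels were averaged as log2(FPKM + 1), a scale that understates changes of low genes. Each group is 1 plate, so no test was planned between single plates; intervals are exact (Clopper-Pearson, 95%) and cover counting error only. Over the 4 wells and 4 plate means limma 3.58.1 (R 4.3.3), on genes above FPKM 1 in at least 2 wells or measured in 1 plate, with lineage and genotype label as terms, was added after the data were seen as the only test, with Benjamini-Hochberg adjustment over all genes. The difference and limma scripts were tested on simulated data. Python 3.11.15 with pandas 2.3.3 and scipy 1.17.1 was used. Near copies were sought by alignment of GENCODE M21 transcripts.

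The members, the related gene lists and the questions were chosen with earlier results of these data known. In each comparison the text names the measured members past 1 log2 unit, those nearest to 0 and those with another sign in the wells or without cycling cells; outside the lists only the 10 genes nearest to the core level are named. The co-detection of 8 low-oxygen members was added after the values were seen. Alternatives tried were the pseudocount, gene and cell filters, cycling cells left out or alone, pairing on genes detected, rescaling, centring, and leaving out sparse libraries or cells with markers of another type.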

Additional observations from a re-analysis of the deposited data

Results flagged for a closer look

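The median difference of the measured members, KO-labelled minus WT, had opposite signs in the lineages: -0.75 in CD8 cells (25 members) and 0.37 in CD4 cells (21 members). Each lineage is 1 plate per label, so the difference between lineages was not tested. The share of cycling cells moved with the CD8 value, 45.8% of WT against 6.25% of KO-labelled cells, and without them the CD8 median was 0.27 and the CD4 median 0.38. With the sparse WT CD8 libraries also left out, the CD8 median was negative again, so the signs were again opposite. Neither CD4 plate held sparse libraries.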

How the results depend on the processing

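Of the alternative values of the 8 medians, 52 lay within 1.5 times of the reported value with the same sign, 45 moved further with the same sign and 19 changed sign; the cause was not tested. The KO-labelled minus WT median in CD8 cells (-0.75) became -0.41 with a pseudocount of 10, -1.13 with at least 2000 genes, -0.035 in cycling cells alone, -0.068 paired on genes detected, -0.042 paired without cycling cells, -0.29 centred on all genes, -0.31 in the wells and -1.16 without sparse libraries; it was 0.15 with 1000 to 4000 genes and 0.27 without cycling cells. In CD4 cells (0.37) it became 0.17 with a pseudocount of 10, 0.10 with no gene filter, 0.20 with 1000 to 4000 genes, 0.21 centred and 0.19 without cells carrying markers of another type; it was -0.099 with at least 2000 genes, -0.24 in cycling cells alone, -0.063 paired, -0.089 paired without cycling cells, -0.026 from mean FPKM and -0.11 in the wells. The WT lineage median (-0.48) became -0.76 and -0.30 with pseudocounts of 0.1 and 10, -1.08 without sparse libraries and -0.22 without these and cycling cells; it was 0.43 with 1000 to 4000 genes, 0.18 without cycling cells, 0.44 in cycling cells alone, 0.45 paired, 0.49 paired without cycling cells, 0.29 centred and 0.24 in the wells. The KO-labelled lineage median (0.24) became 0.10 with no gene filter, 0.085 with a 50% filter, 0.40 with at least 2000 genes, 0.12 with 1000 to 4000 genes, 0.062 without cycling cells (with or without sparse libraries), 0.39 in cycling cells alone, 0.81 paired, 0.65 paired without cycling cells, 0.46 centred, 0.41 from mean FPKM and 0.47 in the wells; it was -0.022 without cells carrying markers of another type. Cycling minus other cells became 1.32, 1.41 and 1.70 with a pseudocount of 10 in the CD8 plates (WT, then KO label) and the KO-labelled CD4 plate, and 1.08 with 1000 to 4000 genes in WT CD8. With 2 of 5 cycling genes it was 1.00, 1.01 and 1.04 in the KO-labelled CD8 plate and the CD4 plates (WT, then KO label). Centred it was 1.03, 1.03, 1.18 and 1.07 in the 4 plates, and from mean FPKM 1.18, 1.03, 1.49 and 1.07. Paired it was -0.88, -0.48, -0.69 and 1.45. No paired analysis was possible because single cells of different plates share no replicate numbers; over wells and plate means the limma fit held the genotype label, whose code a CD4 and a CD8 plate share, as a term. Replicates could not be left out either, since each plate stands alone. The share of cells with 3 or more of the 8 low-oxygen members stayed at 1.33 to 3.03% of KO-labelled CD8 cells when 1 choice was changed at a time and was 15.4 to 42.4% in WT CD8 cells. Depth is unknown, so absence of a gene in a cell is not absence of its RNA.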

Other observations

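Of 28 other low-oxygen genes 26 were found in any kept cell, 25 of them in a larger share of the 36 cells with Bnip3 than of the rest and 1 in a smaller one. Cells with Bnip3 had more genes detected: of the 18 genes found in 5 to 40% of cells all 18 had the larger share, against 84.8% of all genes of that frequency, and the median gap was 15.5 percentage points against 9.41. The genes named next were picked after their values were seen. Fam162a was found in 61.1% of cells with Bnip3 against 19.4% without, Higd1a in 75% against 34.7%, Ankrd37 in 25% against 6.72% and Ndrg1 in 19.4% against 4.48%. These shares pool all plates, and the part of plate differences in them was not tested. On the WT CD4 plate Fam162a was found in 7 of 12 cells with Bnip3 and 5 of 67 without. Of the 53 cells with 3 or more of the 8 low-oxygen members, 27 were cycling and 10 carried 3 or more markers of 1 other cell type, 6 on the WT CD8 and 4 on the KO-labelled CD4 plate; the part of those markers in the co-detection was not tested beyond the counts without them. The reads assigned to Gm5506, the Eno1 copy, were listed at 0 in the KO-labelled CD8 well while the other 3 wells held 302.08 to 395.81 FPKM.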
